A study of Chlorocebus sabaeus with 6 samples.

Results

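Caveolae are small flask-shaped pits of the plasma membrane. Caveolins insert into the inner leaflet and make up the membrane coat, cavins assemble on it from the cytosol, and EHD ATPases and PACSIN proteins, which carry a membrane-bending F-BAR domain, sit at the neck that joins the pit to the cell surface. Caveolae are abundant in fat, endothelial and muscle cells, flatten under stretch, and are reached by endocytic and signalling proteins. The genes described here are the 9 rows of the gene expression table named CAV1, CAV2, CAVIN1, CAVIN2, CAVIN3, EHD2, EHD4, PACSIN2 and PACSIN3, of 18050 genes in the table. All 9 passed the filter on low counts, with 13094 genes tested in all. They were chosen by name, with their fitted changes between the same WT and DKO libraries known from earlier results, so those changes are given as a description and are no independent evidence.

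RNA was sequenced from COS7, a line of fibroblast-like cells of African green monkey kidney (Chlorocebus sabaeus) that carries SV40 sequence. A group of 3 wild-type samples (WT) was set against 3 samples with knockout of ATL2 and ATL3 (DKO), which encode atlastins, GTPases that join endoplasmic reticulum tubules to one another. Both groups were grown in DMEM with serum and antibiotics, and the labels name no treatment. The labels do not say how the knockout was made, how many clones it represents or whether the samples of a group were separate cultures, so the p-values rest on a spread among samples that may be technical only.

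The libraries held 14197344 to 15693049 estimated counts. ATL2 had 1211 to 1354 counts in the WT libraries and 183 to 320 in the DKO libraries, and ATL3 956 to 1046 and 107 to 156. DKO replicate 3 stood apart from DKO replicates 1 and 2, with a chi-square of 79.0 and 84.2 per gene against 1.56 between those 2 and 1.87 to 3.65 between WT libraries. Values without that library are therefore given for each caveolar gene and each context list, and for other named genes whose call it changed. Of the genes tested, edgeR called 45.5% at an adjusted p below 0.05, 74.6% without DKO replicate 3, 40.1% and 41.6% without DKO replicate 1 or 2, and 32.2%, 33.0% and 32.1% without WT replicate 1, 2 or 3. A call alone therefore says little about a gene here, and the size of each change and its value in every library are given first. In whole-culture RNA, fewer cells with a transcript and less transcript per cell cannot be told apart.

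The caveolar genes did not move as one group. CAV1 fell to 45.5% of its WT level while the level of CAVIN1, the main cavin, was nearly equal in both genotypes. CAVIN2 was almost silent in WT and present in DKO, and CAVIN3 was present in WT and at 0 counts in DKO. Among the neck genes EHD2 fell and EHD4 and PACSIN2 rose. Of the 9 genes 3 were called higher (CAVIN2, EHD4 and PACSIN2), 3 lower (CAV1, CAVIN3 and EHD2) and 3 were not called (CAV2, CAVIN1 and PACSIN3), beside 23.3% called higher and 22.2% called lower among all genes tested. A log2 fold change (DKO over WT) of at least 1 in size was called for 3 of the 9 (CAV1, CAVIN2 and CAVIN3), beside 21.9% of all genes tested. Without DKO replicate 3, 3 were higher and 5 lower, beside 36% and 38.6% of all genes tested. The median log2 fold change of the 9 was -0.35, also with CAVIN3 at its lower bound, against -0.01 over all genes tested. The WT and DKO libraries did not overlap in FPKM (counts scaled by the authors to transcript length and library depth) for 8 of the 9 genes, beside 63.2% of all genes tested.

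**Figure D1:**
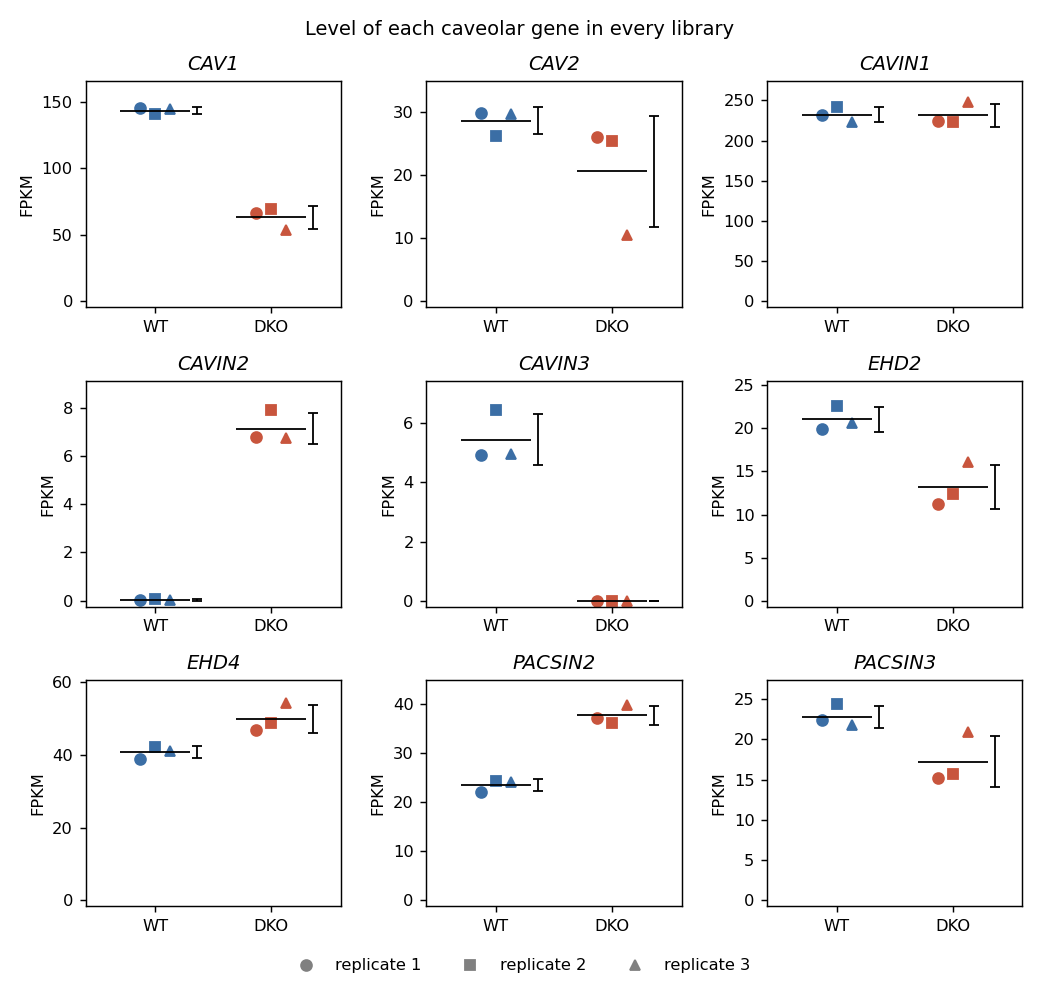
FPKM of the 9 caveolar genes (vertical axes, linear, 1 panel a gene) in the 3 WT and 3 DKO libraries, with the marker shape giving the replicate, a line for the mean and a bar for the SD (n = 3). CAV1 lies at 140 to 145 in WT and 53.4 to 69.5 in DKO, CAVIN2 appears and CAVIN3 is lost in DKO, and the triangle of DKO replicate 3 lies apart for CAV2.

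CAV1 (gene ID 103226770) encodes the caveolin without which caveolae do not form outside muscle. Its level was 145, 140 and 145 FPKM in the WT libraries and 66.1, 69.5 and 53.4 FPKM in the DKO libraries. Every DKO library lay below every WT library, and the gap between the groups was wider than the range within either. The means were 143 ± 2.55 FPKM (SD, n = 3) in WT against 63 ± 8.47 (SD, n = 3) in DKO, and edgeR fitted a log2 fold change of -1.14 (SE 0.10, adjusted p = 0.00013), or 45.5% of the WT level. CAV1 was the one member with many counts in both genotypes that changed more than 2-fold, and 19.2% of all genes tested had a larger fitted change in size. Without DKO replicate 3 the log2 fold change was -1.07 (SE 0.05).

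CAV2 (gene ID 103226769) encodes the second caveolin, which needs caveolin-1 to leave the Golgi apparatus and reach the cell surface. It had 29.9, 26.2 and 29.8 FPKM in WT and 26, 25.5 and 10.4 FPKM in DKO. DKO replicates 1 and 2 lay just under the lowest WT library, and DKO replicate 3 lay far below both. On the log2 CPM scale (counts relative to library size, normalized between libraries) that library was 1.20 below the mean of the other DKO libraries, a difference larger in size than for 92.8% of all genes tested, where the median size was 0.45. The log2 fold change of CAV2 came to -0.45 (SE 0.30, edgeR adjusted p = 0.27), and -0.15 (SE 0.06, adjusted p = 0.021) without DKO replicate 3. CAV2 was thus called only without that library, and its difference there was the smaller one.

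The make-up of the caveolin pair differed among the DKO libraries. CAV1 had 4.84, 5.36 and 4.85 times the FPKM of CAV2 in WT, 2.54 and 2.73 times in DKO replicates 1 and 2, and 5.11 times in DKO replicate 3. The ratio was therefore lower than in WT in 2 DKO libraries and within the WT range in the third. The sum of both caveolins was 172 ± 4.69 FPKM (SD, n = 3) in WT against 83.7 ± 17.2 (SD, n = 3) in DKO, with 63.9 FPKM in DKO replicate 3 as the lowest library.

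CAVIN1 (gene ID 103243407), also known as PTRF, encodes the cavin that forms the scaffold of the coat and is required for caveolae. It was the most abundant of the 9 transcripts per length in both genotypes, with 232, 242 and 223 FPKM in WT and 224, 223 and 248 FPKM in DKO. The groups overlapped, and DKO replicate 3 was the highest library of all. The log2 fold change came to 0.04 (SE 0.10, edgeR adjusted p = 0.78), and 95.2% of all genes tested had a larger fitted change. Leaving out each library in turn gave -0.05 to 0.07, with -0.05 (SE 0.04) without DKO replicate 3, so neither direction was fixed. Per length, CAVIN1 had 1.55 to 1.72 times the FPKM of CAV1 in the WT libraries and 3.21 to 4.64 times in the DKO libraries.

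CAVIN2 (gene ID 103217542), also known as SDPR, encodes a cavin that binds phosphatidylserine and promotes membrane curvature. It had 1, 3 and 1 counts in the WT libraries and 294, 340 and 328 in the DKO libraries, or 0.02, 0.07 and 0.02 FPKM against 6.77, 7.89 and 6.73 FPKM. All 3 DKO libraries were close together and far above WT, and DKO replicate 3 did not stand apart. As a share of the library the summed counts were 196 times higher in DKO, with an exact 95% counting interval from 83.8 to 606 that covers counting error only. The edgeR fit gave a log2 fold change of 7.55 (SE 0.28, adjusted p = 5.9e-06), an SE that falls short of the counting error of 5 WT counts. DESeq2 gave 7.63 (SE 0.68), and edgeR without DKO replicate 3 gave 7.55 (SE 0.25), an SE with the same shortfall. Without WT replicate 2, which held 3 of those counts, the edgeR value was 8.21. The level reached in DKO, 7.13 ± 0.66 FPKM (SD, n = 3), lay at the 53.9 percentile of the genes above 0 FPKM in that genotype.

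CAVIN3 (gene ID 103241556), also known as PRKCDBP for its binding of protein kinase C delta, encodes a cavin linked to caveolar trafficking and signalling. It had 134, 174 and 135 counts in WT and 0 in every DKO library, or 4.94, 6.44 and 4.95 FPKM against 0. With a floor of 3 counts per DKO library, CAVIN3 was at least 48.2-fold lower in DKO (edgeR adjusted p = 9.4e-05). Without DKO replicate 3 it was also called lower (edgeR adjusted p = 4.4e-22). In WT its level lay at the 49.3 percentile of genes above 0 FPKM, so both CAVIN2 in DKO and CAVIN3 in WT were transcripts of middle abundance.

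These opposite changes left the summed level of the 3 cavins nearly equal, at 238 ± 10.1 FPKM (SD, n = 3) in WT against 239 ± 13.7 (SD, n = 3) in DKO, because CAVIN1 made up most of it. CAVIN1 was 97.7% ± 0.28 of the sum in WT and 97% ± 0.39 in DKO. The remainder was CAVIN3 in WT, at 2.28% ± 0.27 of the sum against 0.02% for CAVIN2, and was CAVIN2 alone in DKO, at 3% ± 0.39. By estimated counts, which do not allow for transcript length, CAVIN3 was 1.14% ± 0.14 of the cavins in WT and CAVIN2 2.51% ± 0.32 in DKO.

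**Figure D2:**
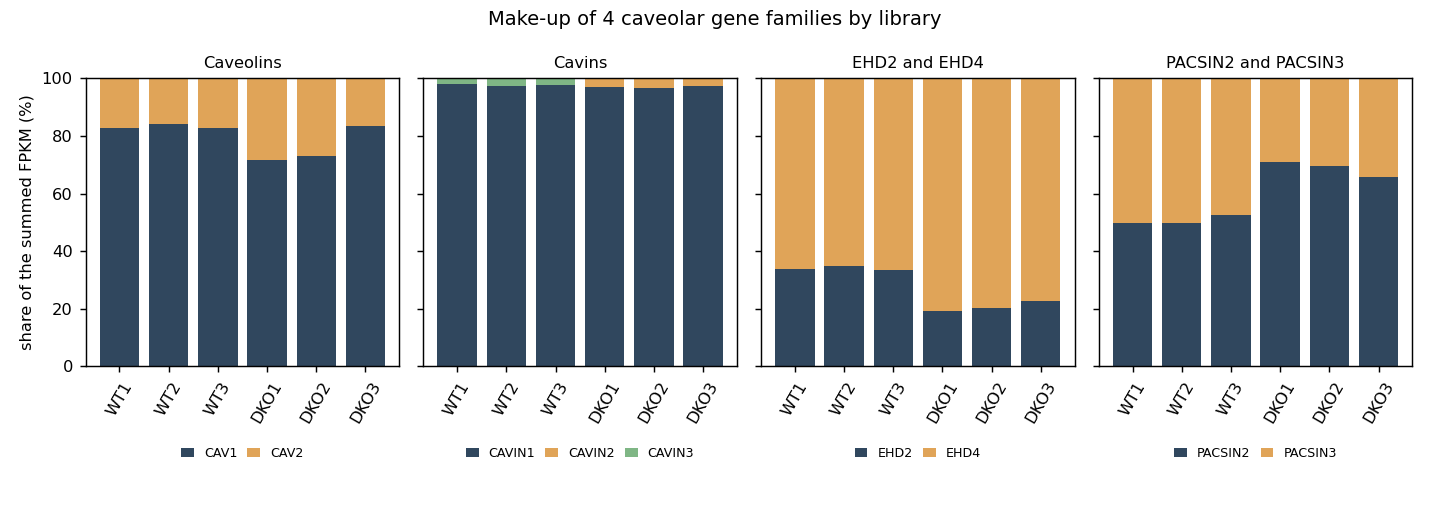
Share of each gene in the summed FPKM of its family (vertical axis, percent, stacked bars) in each of the 6 libraries, for the caveolins, the cavins, EHD2 with EHD4, and PACSIN2 with PACSIN3. The thin upper band of the cavins is CAVIN3 in WT and CAVIN2 in DKO, EHD4 takes 65.1 to 66.7% in WT and 77.2 to 80.7% in DKO, and the CAV1 share of DKO replicate 3 lies within the WT range.

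EHD2 (gene ID 103234948) encodes the ATPase that forms rings at the caveolar neck and holds caveolae at the surface. It had 19.9, 22.6 and 20.6 FPKM in WT and 11.2, 12.4 and 16.1 FPKM in DKO. Every DKO library lay below WT, with DKO replicate 3 the nearest to it. The log2 fold change came to -0.62 (SE 0.18, edgeR adjusted p = 0.03), and -0.84 (SE 0.08, adjusted p = 5.6e-13) without DKO replicate 3. The call was lost without WT replicate 1 (adjusted p = 0.072), WT replicate 2 (0.096), WT replicate 3 (0.083), DKO replicate 1 (0.078) or DKO replicate 2 (0.079), with the same direction each time.

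EHD4 (gene ID 103245778), a paralogue that can also be found at caveolae and on endosomes, had 39, 42.2 and 41.2 FPKM in WT and 46.8, 48.9 and 54.3 FPKM in DKO. The DKO libraries all lay above WT by a small margin. The log2 fold change came to 0.34 (SE 0.11, edgeR adjusted p = 0.045). It was no longer called without WT replicate 1 (adjusted p = 0.17), WT replicate 2 (0.11), WT replicate 3 (0.13) or DKO replicate 2 (0.07), and was 0.23 (adjusted p = 3.6e-05) without DKO replicate 3. EHD4 had 1.87 to 2.0 times the FPKM of EHD2 in the WT libraries and 3.39 to 4.19 times in the DKO libraries. Their sum was 61.8 ± 2.98 FPKM (SD, n = 3) in WT against 63.2 ± 6.43 (SD, n = 3) in DKO, a difference smaller than the spread within DKO.

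PACSIN2 (gene ID 103223430), also known as syndapin-2, encodes the widely expressed F-BAR protein of the caveolar neck. It had 22.2, 24.2 and 24.2 FPKM in WT and 37.2, 36.1 and 39.9 FPKM in DKO. All DKO libraries were well above WT and close together. The log2 fold change came to 0.73 (SE 0.11, edgeR adjusted p = 0.0018), or 165% of the WT level, and 0.64 (SE 0.05) without DKO replicate 3.

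PACSIN3 (gene ID 103236306), the paralogue best known from muscle caveolae, had 22.4, 24.4 and 21.8 FPKM in WT and 15.2, 15.7 and 20.9 FPKM in DKO. DKO replicates 1 and 2 were clearly lower and DKO replicate 3 lay just under the lowest WT library. The log2 fold change came to -0.35 (SE 0.18, edgeR adjusted p = 0.15), and -0.56 (SE 0.08, adjusted p = 7.4e-09) without DKO replicate 3. The 2 genes were at about the same level per length in WT, where PACSIN2 had 0.99 to 1.11 times the FPKM of PACSIN3, and PACSIN2 had 1.91 to 2.45 times in DKO.

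**Figure D3:**
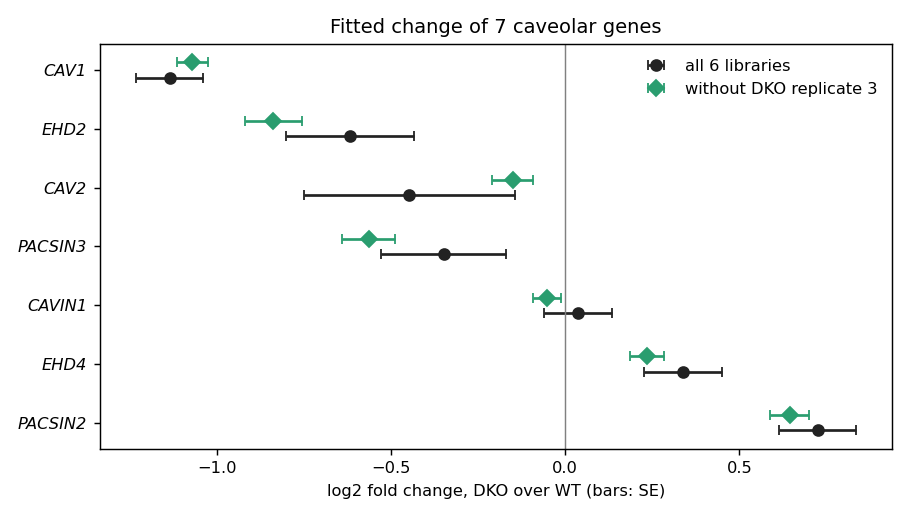
Fitted log2 fold change, DKO over WT (horizontal axis, bars give the SE), of the 7 caveolar genes with many counts in both genotypes, with all 6 libraries (circles) and without DKO replicate 3 (diamonds). CAV1 and PACSIN2 move little between the fits, CAV2 moves from -0.45 to -0.15 and PACSIN3 from -0.35 to -0.56.

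DKO replicate 3 differed from the other DKO libraries in both directions among these genes. On the log2 CPM scale it was 0.56 higher for EHD2 and for PACSIN3, 0.28 higher for EHD4, 0.24 higher for CAVIN1 and 0.22 higher for PACSIN2. It was 1.20 lower for CAV2 and 0.22 lower for CAV1, and differed by -0.02 for CAVIN2. Over all genes tested, 11.4% differed by 1 or more in size, so CAV2 was the one caveolar gene in that range.

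In WT the order of levels per length was CAVIN1, CAV1, EHD4, CAV2, PACSIN2, PACSIN3, EHD2, CAVIN3 and CAVIN2. The ranges of PACSIN2 and PACSIN3 overlapped, as did those of PACSIN3 and EHD2, and no other neighbours in this order did. CAVIN1 lay at the 97.7 percentile and CAV1 at the 96.2 percentile of genes above 0 FPKM. In DKO the order was CAVIN1, CAV1, EHD4, PACSIN2, CAV2, PACSIN3, EHD2, CAVIN2 and CAVIN3. There the ranges of CAV1 and EHD4 overlapped, as did those of CAV2 and PACSIN3 and of PACSIN3 and EHD2. CAV1 lay at the 90.2 percentile in DKO. The gap between the most abundant caveolin and the neck gene EHD4, 143 against 40.8 FPKM in WT, was 63 against 50 FPKM in DKO.

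Paralogues of the caveolar genes outside the 9 were read from a list of 11 family members and partners. The muscle genes CAV3 and CAVIN4 were at or near the floor, with 0 and 1 counts of CAV3 and 12 and 12 counts of CAVIN4 in the 3 WT and 3 DKO libraries together. PACSIN1, the neuronal paralogue, fell from 1.85 ± 0.21 to 0.07 ± 0.04 FPKM (log2 fold change -4.67, SE 0.30, edgeR adjusted p = 4.1e-05). It had 13 counts in the DKO libraries together, and that SE falls short of their counting error. EHD1, which acts on recycling endosomes, rose from 56.6 ± 1.78 to 83.4 ± 9.61 FPKM (0.60, SE 0.13), and EHD3 had 1.39 ± 0.17 FPKM in WT and 1.41 ± 0.07 in DKO (0.18, SE 0.13, edgeR adjusted p = 0.32). FLNA, the actin crosslinker that links caveolae to stress fibres, fell from 221 ± 8.93 to 92.6 ± 18.7 FPKM (-1.21, SE 0.16). The receptor gene ROR1, known as a scaffold for caveolin and cavin, rose from 3.95 ± 0.37 to 6.23 ± 1.23 FPKM (0.69, SE 0.16). Of 9 tested genes of this list 2 were higher, 2 lower and 5 not called, or 44.4% called, with a median of -0.29 (3 higher and 5 lower without DKO replicate 3). The share called over all genes tested was 45.5%, and 74.6% without that library.

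Genes of other membrane protein families and of other endocytic and membrane-shaping routes also changed in both directions. The flotillin and stomatin genes were listed by family and not by an endocytic route. Of 7 tested flotillin and stomatin genes 3 were higher and 1 lower (57.1% called, median 0.47, and 4 higher and 2 lower without DKO replicate 3). Beside these stand 45.5% called over all genes tested, and 74.6% without that library. FLOT1, which forms other membrane microdomains, fell from 63.3 ± 4.97 to 36.5 ± 8.94 FPKM (-0.74, SE 0.21). ERLIN2 rose by 0.98 (SE 0.12), STOM by 1.17 (SE 0.27) and STOML2 by 0.57 (SE 0.15). Without WT replicate 1, 2 or 3, 2 genes of this list were called, beside 32.2%, 33% and 32.1% of all genes tested.

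Of 25 tested genes of clathrin, its adaptor AP2 and accessory proteins 5 were higher and 7 lower (48% called, median -0.27, and 5 higher and 17 lower without DKO replicate 3). Over all genes tested the share called was 45.5%, and 74.6% without that library. The accessory genes HIP1 (-1.88, SE 0.14), HIP1R (-1.09, SE 0.16) and ITSN2 (-0.89, SE 0.15) fell and NECAP1 (0.77, SE 0.11) rose. The clathrin count was 7 without WT replicate 1 or WT replicate 3, beside 32.2% and 32.1% of all genes tested, and 22 without DKO replicate 3. Of 12 tested genes of clathrin-independent carriers 2 were higher and 3 lower (41.7% called, median 0.03, and 4 higher and 5 lower without DKO replicate 3). SH3GL2 had 124 counts in WT and 2 in DKO, 60.8 times fewer as a share of the library (95% counting interval 16.5 to 508). ARHGAP26 rose by 0.42 (SE 0.10) and ARF6 by 0.39 (SE 0.10), and SWAP70 fell (-0.63, SE 0.17). Just 1 gene of this list was called without WT replicate 1, 2 or 3, beside 32.2%, 33% and 32.1% of all genes tested. Without DKO replicate 3, 9 were called.

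Of 18 other tested genes with a BAR or F-BAR domain 3 were higher and 7 lower (55.6% called, median -0.30, and 4 higher and 12 lower without DKO replicate 3). All genes tested had 45.5% called, and 74.6% without that library. The GTPase-activating protein genes ARHGAP44 (-5.16, SE 0.25), SRGAP1 (-1.32, SE 0.13) and SRGAP2 (-0.80, SE 0.09) and the kinase gene FES (-4.35, SE 0.32, and -5.04 without DKO replicate 3) fell. ARHGAP44 had 15 counts and FES 10 in the DKO libraries together, and their SEs fall short of the counting error of so few counts. MTSS1 (0.71, SE 0.14) rose, and GAS7 was at 0 counts in WT and at least 12.6-fold higher in DKO. GAS7 and MTSS1 were named after their values were seen.

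**Figure D4:**
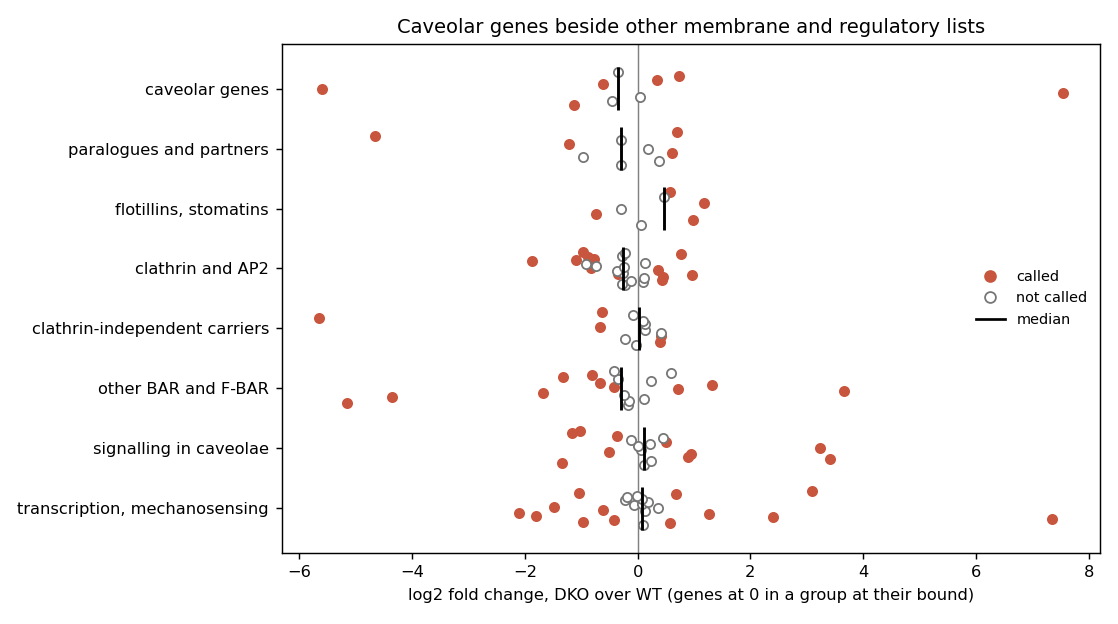
Log2 fold change, DKO over WT (horizontal axis), of each tested gene in the caveolar group and 7 other lists (rows), with filled points for genes called by edgeR, open points for the others, a vertical bar for the list median and genes at 0 counts in a genotype placed at their lower bound. The medians lie between -0.35 for the caveolar genes and 0.47 for the flotillins and stomatins, and every row has called genes on both sides of 0.

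Of 17 tested genes for signalling proteins known in caveolae 5 were higher and 5 lower (58.8% called, median 0.12, and 8 higher and 7 lower without DKO replicate 3). The shares over all genes tested were 45.5%, and 74.6% without that library. Growth factor receptor genes moved in both directions. EGFR rose from 11.3 ± 0.41 to 117 ± 3.94 FPKM (3.41, SE 0.09), as did PDGFRB from 0.59 ± 0.05 to 5.35 ± 0.74 FPKM (3.23, SE 0.18) and IGF1R by 0.94 (SE 0.10), while INSR (-0.51, SE 0.16) and TGFBR2 (-0.37, SE 0.11) fell. ABL2, a kinase gene, fell (-1.33, SE 0.13). PRKCD, which encodes the kinase bound by CAVIN3, had 6.86 ± 0.27 FPKM in WT and 9.36 ± 1.36 in DKO (0.50, SE 0.16, edgeR adjusted p = 0.039, and 0.33, SE 0.09, without DKO replicate 3). PRKCD, INSR and TGFBR2 were named after their values were seen. Without WT replicate 1, 2 or 3, 6, 6 and 5 genes of this list were called, beside 32.2%, 33% and 32.1% of all genes tested.

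Of 23 tested genes for transcription factors tied to caveolar genes or to mechanosensing 6 were higher and 7 lower (56.5% called, median 0.07). Without DKO replicate 3, 7 genes of this list were higher and 11 lower. Those 11 include MYOCD, which is not among the 23, as it did not pass the filter over all 6 libraries. For all genes tested the share called was 45.5%, and 74.6% without that library. YAP1, a coactivator that responds to stretch, rose from 16.6 ± 1.2 to 140 ± 26.7 FPKM (3.10, SE 0.15). WWTR1, also of this list and named after its values were seen, fell from 45.5 ± 2.39 to 21.8 ± 6.84 FPKM (-1.03, SE 0.21). GATA4 rose from 0.04 ± 0.05 to 6.86 ± 0.48 FPKM (7.34, SE 0.46), from 6 counts in the WT libraries together, of which 5 were in WT replicate 2. That SE falls short of the counting error of so few counts. PPARG, the adipogenic nuclear receptor, fell from 49.7 ± 0.97 to 17.6 ± 0.11 FPKM (-1.48, SE 0.10), and KLF5 from 26.4 ± 1.07 to 5.97 ± 1.39 FPKM (-2.11, SE 0.17). Whether any of these acts on the caveolar genes was not tested.

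The genes next to each caveolar gene were read from the RefSeq gene order of assembly mChlSab1.0.hap1, as the 2 nearest genes of the table on each side. Of 24 tested neighbours that are not themselves caveolar genes 8 were higher, 6 lower and 10 not called (58.3% called, median -0.09). Over all genes tested 23.3% were higher and 22.2% lower, or 45.5% called. CAV2 and CAV1 lie side by side, between TES, which encodes a focal adhesion protein, and the receptor gene MET. TES rose (0.57, SE 0.15) and MET fell (-0.66, SE 0.11), so called changes in both directions flank the pair. Beyond MET, CAPZA2, an actin capping gene, had 60.1, 58.8 and 66.8 FPKM in WT and 41.1, 38.2 and 10.9 FPKM in DKO (-1.02, SE 0.42, edgeR adjusted p = 0.085). As for CAV2, its lowest library was DKO replicate 3, and without that library it was called at -0.64 (SE 0.06, edgeR adjusted p = 2.2e-14). Next to CAVIN2, NABP1 rose (1.41, SE 0.29). Beyond the adjacent gene on the other side of CAVIN2, SLC39A10 fell (-1.10, SE 0.31). Near CAVIN3, APBB1 fell (-1.27, SE 0.22), and SMPD1, which lies between them, had 7.94 FPKM in WT and 6.36 in DKO (-0.27, SE 0.20, edgeR adjusted p = 0.31, and -0.51, SE 0.10, adjusted p = 1.6e-05 without DKO replicate 3). On the other side of CAVIN3, CCKBR had 12, 12 and 5 counts in WT and 0 in every DKO library, at least 3.16-fold lower, and did not pass the filter for the test over all 6 libraries. Without DKO replicate 3 CCKBR passed the filter through its WT counts alone and was called lower (edgeR adjusted p = 2.2e-05). That call adds nothing to its counts. SMPD1, CCKBR, TES, MET and CAPZA2 were named after their values were seen. Near EHD4, SPTBN5 rose (1.23, SE 0.29), near PACSIN2, A4GALT fell (-1.95, SE 0.19), and near PACSIN3, ACP2 rose (1.35, SE 0.17).

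Over the 6 libraries the genes with the pattern most like that of CAV1 on the log2 CPM scale were PTPRG, MB21D2 and ATL3, with Pearson correlations of 0.9997, 0.9997 and 0.9996. For CAVIN2 they were NAV2, CLMN and PTPN3, with correlations of 0.9998, 0.9994 and 0.9992. Such values mostly restate the split into 2 genotypes: 524 tested genes correlated with CAV1 at 0.99 or more, and 308 with CAVIN2. The 6 points share the 2 genotypes and DKO replicate 3, and these correlations are a description.

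Markers of cell types were read beside the caveolar genes. For fibroblasts and mesenchyme, VIM was high in both genotypes (1533 FPKM in WT and 1318 in DKO, not called with all 6 libraries and called at -0.18 without DKO replicate 3), whereas THY1 was at 0 counts in all libraries and COL1A2 and DCN were at 0 in WT. Of the 10 such markers measured here 6 were tested, with 2 called higher and 3 lower, and the summed level was 3360 to 3451 FPKM in WT and 1525 to 1580 in DKO, mostly VIM and FN1. FN1 fell from 1838 to 207 FPKM, while PDGFRA rose from 0.26 to 16.8 FPKM and PDGFRB from 0.59 to 5.35 FPKM. Of 12 kidney epithelium markers 9 were tested, with 1 higher and 7 lower, with sums of 785 to 881 and 558 to 723 FPKM. KRT8 had 508 FPKM in WT and 451 in DKO and was not called (-0.33 and called without DKO replicate 3), KRT18 fell from 189 to 106 FPKM and PAX8 from 76.3 to 28.3 FPKM. LHX1 fell from 33.9 to 0.09 FPKM and CDH1 from 4.84 to 0.09 FPKM, EPCAM rose from 12.9 to 32 FPKM, LRP2 was at 0 in WT and CDH6 at 0 in DKO.

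Among cell types rich in caveolae, smooth muscle had 9 markers in the table and 5 tested. Of these 5, 4 were higher and the other was not called. Without DKO replicate 3, 4 were higher and 2 lower, the 2 including MYOCD, which is not among the 5. The sums were 66.4 to 73.6 FPKM in WT and 169 to 240 in DKO. MYL9 was at 0 counts in WT. MYOCD had 14, 17 and 10 counts in WT and 0 in every DKO library, and did not pass the filter over all 6 libraries. Without DKO replicate 3 it passed through its WT counts alone and was called lower (edgeR adjusted p = 6.9e-07). That call adds nothing to its counts. The defining markers ACTA2 and MYH11 had 0.05 and 0.01 FPKM in WT and 0.04 and 0.01 in DKO. The summed level and its rise therefore lay in other markers of this list. Of 12 endothelial markers the low-count filter left 3, with 2 higher and 1 lower (32.2 to 34.5 and 36 to 41.8 FPKM). TEK rose from 0.05 to 15.1 FPKM and VWF from 0.04 to 0.24 FPKM and ENG fell from 32.7 to 22.8 FPKM, while PECAM1 was at 0.12 FPKM in WT and 0.06 in DKO, KDR and PLVAP were at 0 in WT and ERG at 0 in DKO. Of 7 adipocyte markers 6 were tested, with LIPE higher and PPARG lower (58 to 60.1 and 29.8 to 30.2 FPKM), and PLIN1 was at 0.48 and 0.59 FPKM. Of 11 skeletal and cardiac muscle markers 3 were tested, with ACTC1 higher (4.06 to 4.97 and 5.63 to 9.11 FPKM), with CAV3, MYH7 and CKM at 0 in WT and CKM at 0 in DKO. The 7 haematopoietic markers summed to 14.5 to 16.6 and 14.4 to 15.9 FPKM, and neither of the tested ones, CD68 (edgeR adjusted p = 0.78) and CD79A (0.13), was called, with CD14 and TYROBP at 0 in WT and CD3E and TYROBP at 0 in DKO. Among all genes tested 45.5% were called, as above. PDGFRA, LHX1, CDH1 and EPCAM were named after their values were seen. The part of these markers in the caveolar changes was not tested.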

How the data were processed

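The authors deposited 1 table with estimated counts and FPKM per gene and sample, per the file headers. Per the submitters' processing notes the tools included HISAT and Bowtie2. The counting program, genome build and annotation are not stated in any label or header used here. Of the deposited estimated counts 5.8 to 6.54% per sample were not whole. A further 9 columns, of 3 samples outside this series' labels, were left unused. The estimated counts were rounded and tested with edgeR 4.0.16 (R 4.3.3) by the quasi-likelihood test, with TMM normalization, the filter on low counts by group (minimum count 10) and Benjamini-Hochberg adjustment over 13094 genes. Each SE is the absolute fitted change over the square root of its F statistic. Levels are the FPKM values the authors deposited, as mean ± SD. Log2 CPM values had a prior count of 2. Where a genotype had 0 counts, folds are lower bounds against 3 counts per library, and counting intervals are exact (Clopper-Pearson). Both cover counting error only.

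The members and all gene lists were chosen with earlier results of these data known. Named genes were the 9 members, ATL2 and ATL3, up to 4 called genes of smallest adjusted p in each of 7 context lists with any paralogue of a member, called neighbours changed at least 2-fold, the 3 genes most like CAV1 and CAVIN2, and up to 3 leading markers in each of 7 cell type lists. Other names are said to be chosen after their values were seen, and markers at or near 0 are named as such. Of the table's gene IDs, 92.7% matched the RefSeq annotation, used only for gene order. Protein and promoter sequences were not used here. On simulated data (DKO against WT, 13094 genes) the share of altered genes that edgeR found was 4% at 1.5-fold, 38% at 2-fold and 98% at 4-fold, and 1.37% of calls were false. Far fewer genes were altered in the simulation than were called in the data, so these shares do not describe the fit used here. The alternatives were each library left out, the replicate number as a block, other filters and normalizations, DESeq2 1.42.0, limma 3.58.1 (voom and log2 FPKM) and a threshold of 0.01. Figures were drawn with matplotlib 3.10.9.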

Additional observations from a re-analysis of the deposited data

How the results depend on the processing

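CAV1, CAVIN2, CAVIN3 and PACSIN2 kept their direction and call in all 17 alternatives, and CAVIN1 was called in none. With each library left out in turn, log2 fold changes ranged from -0.64 to -0.15 for CAV2, -0.84 to -0.50 for EHD2, 0.23 to 0.39 for EHD4 and -0.56 to -0.25 for PACSIN3. Members called lower ranged from 2 to 5, all genes called higher from 2105 to 4770 and lower from 2146 to 5110. Called genes ranged from 3 to 8 for paralogues and partners, 2 to 6 for flotillins and stomatins, 7 to 22 for clathrin, 1 to 9 for clathrin-independent carriers, 8 to 16 for BAR and F-BAR genes and 5 to 15 for signalling proteins. EHD4 was also not called with upper quartile normalization (0.33), without the 100 most abundant genes (0.30) or with DESeq2 (0.32), and its adjusted p ranged from 3.6e-05 to 0.17 over all alternatives. At a threshold of 0.01, 1950 genes were called higher, with 1 called for flotillins, 7 for clathrin, 1 for clathrin-independent carriers and 5 for signalling. Limma on log2(FPKM + 1) and on log2(FPKM + 0.1) each called 3 clathrin-independent carrier genes. Over all genes tested these fits called 2761 and 2732 higher and 2823 and 2746 lower. By counts instead of FPKM, which leaves transcript length in, EHD2 was 22.1% of the EHD pair in WT and 12.6% in DKO (34% and 20.7% by FPKM), and PACSIN2 64.7% and 79.6% of the PACSIN pair (50.8% and 68.8% by FPKM). The cause of the other changes was not tested.

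Samples share replicate numbers, but same-numbered samples did not deviate together (correlations 0.02, -0.28 and -0.29). With the replicate block EHD2 (-0.64, edgeR adjusted p = 0.054) and EHD4 (0.33, edgeR adjusted p = 0.12) were not called. That fit called 1 clathrin-independent carrier gene, beside 2220 genes higher and 2265 lower over all genes tested. With 3 samples a genotype, edgeR recovered few simulated 1.5-fold changes, but far fewer genes were altered there than were called in the data. That recovery therefore cannot be carried over to this fit. A gene of small change that was not called, such as CAV2 or PACSIN3, is not shown to be equal in both genotypes.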
